A study of Homo sapiens with 2 samples.

Results

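The genes described here are the TGF-beta ligands TGFB1 and TGFB2, the receptors TGFBR1, TGFBR2 and TGFBR3, the signal transducers SMAD2, SMAD3 and SMAD4, and the inhibitors SMAD7 and SKIL. All probe sets that the array's annotation gives to one of these symbols alone were taken, which made 35 probe sets for 10 genes, of 54675 probe sets and 19775 named genes in all. Expression was compared between HARA, an established line of human squamous cell lung cancer, and HARA-B4, its subline with a strong tendency to form bone metastases. Both lines were grown in RPMI medium with fetal bovine serum and antibiotics, and neither carried an engineered allele or received an agent, as far as the labels state. Each line was measured on 1 Affymetrix array, so a difference between the lines cannot be told apart from one between 2 cultures or 2 arrays, and no p-value is given. The sources used here do not state how the subline was derived or from how many cells.

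TGF-beta is secreted as a latent complex and, once released, binds the type II receptor TGFBR2, which phosphorylates the type I receptor TGFBR1. TGFBR1 then phosphorylates SMAD2 and SMAD3, and these join SMAD4 and enter the nucleus to regulate transcription. SMAD7 and SKIL are themselves induced by the pathway and restrain it. Bone matrix is a rich store of latent TGF-beta, and osteolytic metastasis is often described as a cycle in which growth factor released from bone acts on the tumour cells.

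Values are probe set signals on a linear scale, and differences are log2 signal in HARA-B4 minus log2 signal in HARA. A signal of 27.1, the 95th percentile of 165 probe sets of odour, taste and pheromone receptor genes, was used as the background level. By that level 42.0% of probe sets were above background in HARA and 40.8% in HARA-B4, and 10207 genes were above it on both arrays, with a median difference of 0.02 and an SD of 0.55. For the 4830 genes with repeat probe sets detected in both lines, the SD of the difference among probe sets was 0.30. This is a spread within the same 2 arrays, and it holds none between arrays or cultures. The squamous epithelial markers analysed (8 of 8, among them KRT5, DSG3 and EPCAM) were above background on both arrays, with a median difference of 0.18. So were 2 of 8 markers of gland-like or neuroendocrine lung, 1 of 5 of blood cells and 1 of 4 of endothelium. For osteoblasts and osteoclasts this was 0 of 3 each. Passing this level does not by itself mark a cell type. Of 8 fibroblast markers 6 were below background on both arrays, among them COL1A2, COL3A1, DCN and PDGFRB. The other two were FAP, which was higher in HARA-B4 by at least 5.70-fold, and THY1, which was at least 2.35-fold lower. The 8 signals summed to 116 for HARA and 232 for HARA-B4. FAP alone gave 1.76 and 155 of these sums, so the rise rests on 1 gene. The part of these markers in the results below was not tested. In bulk RNA, a smaller share of cells of one kind and less RNA per cell cannot be told apart.

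TGFB2 and SMAD7 passed 2-fold upward in HARA-B4 and TGFBR3 passed it downward, while the other 7 genes differed by less than 2-fold. That is 2 of 10 genes higher, where 3.62% of the 11496 genes above background on at least 1 array were higher by the same rule, and 1 of 10 lower, where 4.2% were lower. The 7 genes between these limits ran from -0.11 for SMAD2 to 0.61 for TGFBR1. The median difference of the 9 genes above background on both arrays was 0.23, against 0.02 for all such genes. With 10 genes on 2 arrays these figures are a description.

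**Figure D1:**
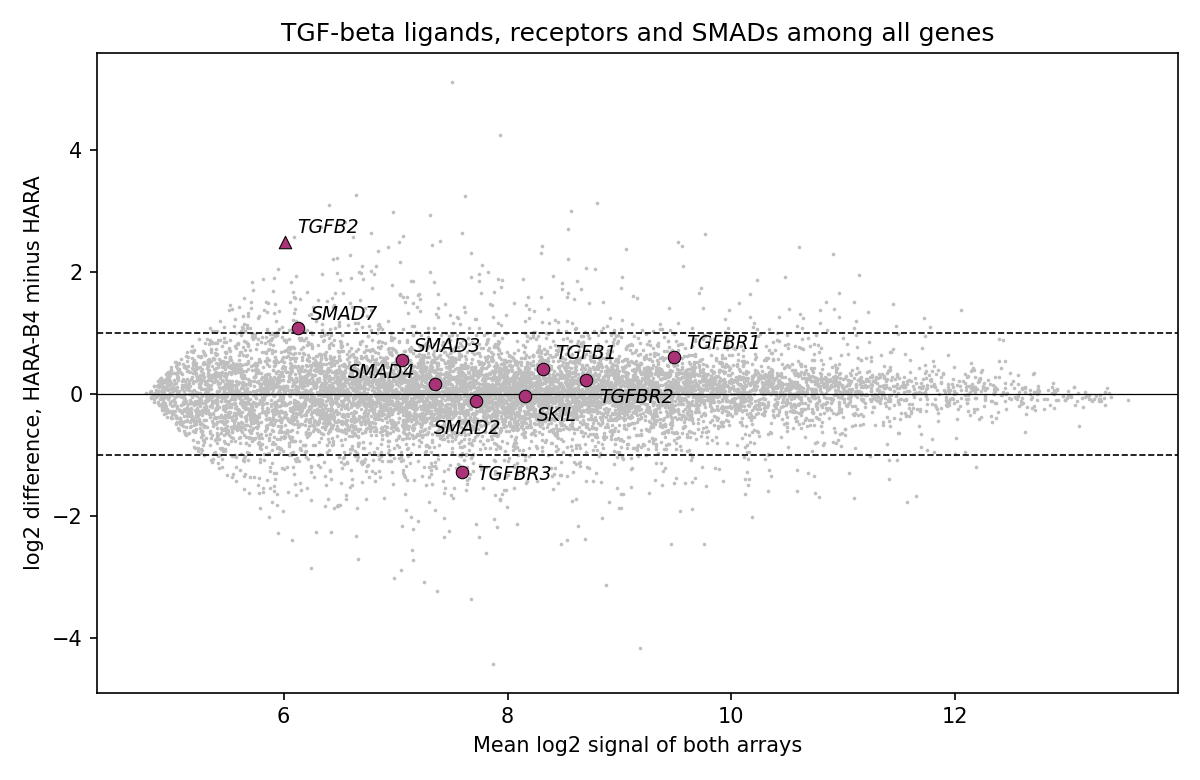
Each grey point is a gene above background on both arrays, by its mean log2 signal (x axis) and its log2 difference, HARA-B4 minus HARA (y axis). Dashed lines mark 2-fold, purple circles are the 9 genes above background on both arrays, and the triangle is the lower bound of TGFB2 (2.50). SMAD7 lies just above the upper line, TGFBR3 lies below the lower line, and the other 7 lie between the lines.

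At the level of single probe sets, 22 of the 35 were above background on at least 1 array and 13 on neither. Of the 22, 3 passed 2-fold upward in HARA-B4 (3.04% of all probe sets above background did) and 2 passed it downward (4.18% of all did). The 3 higher ones were a pair from TGFB2 and the single probe set of SMAD7, and both lower ones belonged to TGFBR3. Of the 18 probe sets detected in both lines, 12 had a positive and 6 a negative difference, where 52.15% of all genes above background on both arrays had a positive one. Several of the 18 measure the same gene, so they are not separate observations. Of all 35, 12 end in _s_at or _x_at, which marks probe sets that can match more than 1 transcript or gene.

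**Figure D2:**
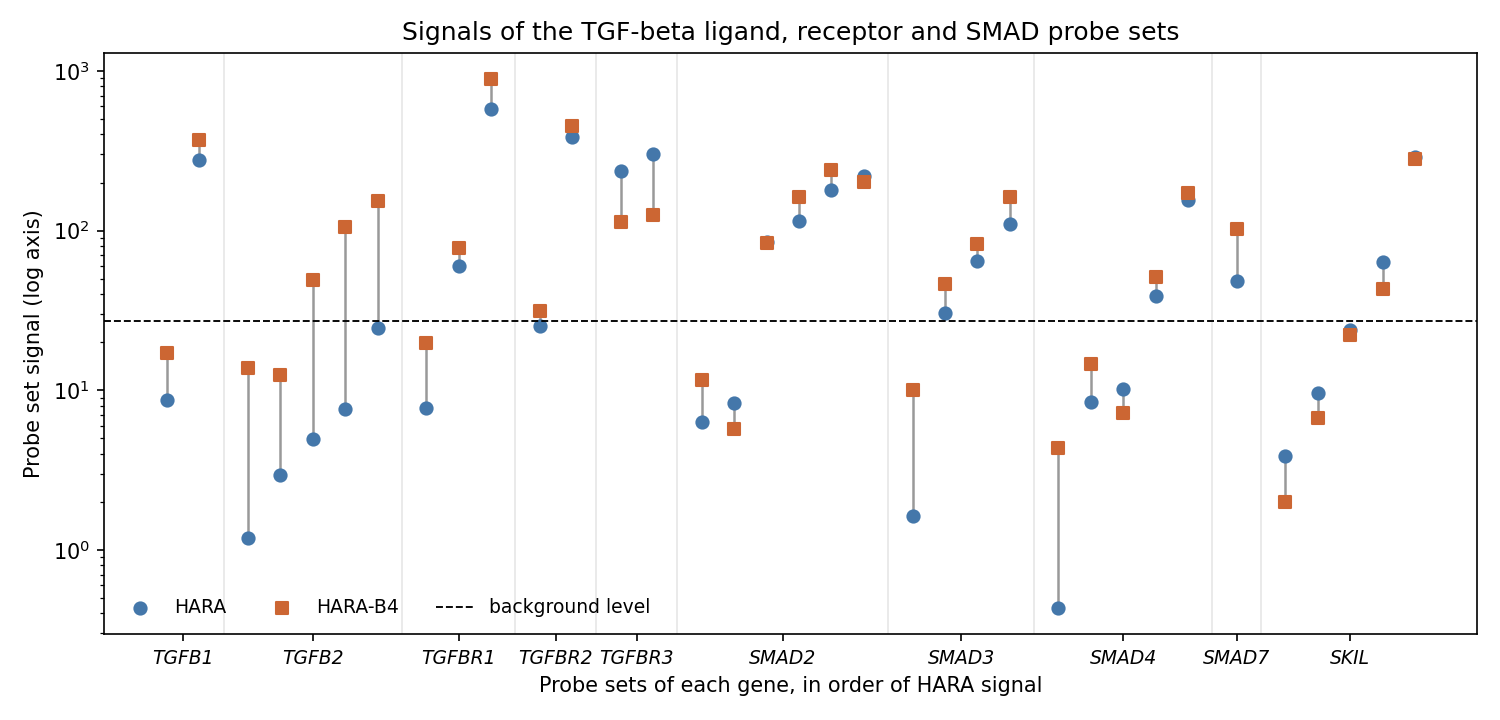
The signal of all 35 probe sets on a log axis, grouped by gene and ordered by the HARA signal within each gene. Circles are HARA, squares are HARA-B4, grey lines join the same probe set, and the dashed line is the background level of 27.1. All 5 TGFB2 probe sets stand higher in HARA-B4 and both TGFBR3 probe sets stand lower, while points under the dashed line carry little information on level.

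Among the ligands, TGFB2 went from background in HARA to a clear signal in HARA-B4. TGFB2 encodes TGF-beta2, the isoform that depends most on the coreceptor TGFBR3 for binding to the signalling receptors. The brightest probe set read 24.7 for HARA and 153 for HARA-B4, the next 7.64 and 105, and another 4.94 and 48.7. All 3 were below background in HARA and above it in HARA-B4. The other 2 TGFB2 probe sets were below background on both arrays, at 2.96 and 12.5 and at 1.19 and 13.9. Against the background level the 3 detected probe sets were higher in HARA-B4 by at least 5.64-fold, 3.87-fold and 1.80-fold. The bound depends on the background level: with the 99th percentile of the receptor probe sets, a signal of 94.8, it fell to 0.69 on the log2 scale, under 2-fold. The mean of the 3 probe sets gave a bound of 1.76 on that scale.

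The promoter of TGFB2 is shown because this gene differed most among the 10. In RefSeq (GRCh38.p14) the 250 bases before its annotated start lie at chr1:218345086-218345335 on the plus strand. Capitals mark matches, on either strand, to the SMAD-binding core CAGAC, the E-box CACGTG, the CRE half-site ACGTCA (a core recognised by CREB and ATF factors) and the TATA motif TATAAA.

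TGFB2: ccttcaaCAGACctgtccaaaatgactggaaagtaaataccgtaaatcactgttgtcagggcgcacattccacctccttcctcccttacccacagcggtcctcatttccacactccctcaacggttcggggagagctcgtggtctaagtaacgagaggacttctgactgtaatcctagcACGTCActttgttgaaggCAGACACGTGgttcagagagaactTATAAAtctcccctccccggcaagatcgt

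Counted back from the start, TATAAA lay at bases 29 to 24, CACGTG at 49 to 44 and ACGTCA at 71 to 66. CAGAC occurred at 243 to 239 and at 53 to 49, where its last base is the first base of the E-box. Over the 35116 windows of the same length in the RefSeq table, CAGAC was found in 38.0%, CACGTG in 6.34%, ACGTCA in 7.10% and TATAAA in 10.7%. These are matches of letters, and neither factor binding nor methylation was measured.

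TGFB1, the most widely expressed isoform, was detected in both lines by 1 probe set. That probe set, an _s_at one, read 276 for HARA and 367 for HARA-B4, a difference of 0.41 (1.33-fold). A second probe set was below background on both arrays, at 8.72 and 17.0. TGFB1 was thus slightly brighter in HARA-B4 on 1 probe set with no second measurement of it, and with shared probe sets left out it was not above background. For TGFB3, the third isoform, the brightest probe set was below background on both arrays (20.1 and 18.1).

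Among the receptors, the coreceptor TGFBR3 was lower in HARA-B4, whereas the signalling receptors TGFBR1 and TGFBR2 were present in both lines and less than 2-fold apart. TGFBR3, or betaglycan, is a membrane proteoglycan that presents TGF-beta2 to TGFBR2, and its shed form can sequester ligand. The brighter probe set read 299.9 for HARA and 125 for HARA-B4, a difference of -1.27, or 2.41-fold lower. The other had 236 and 112, a difference of -1.07. Both probe sets were well above background on both arrays, and both passed 2-fold in the same direction. Only 2.50% of genes above background had a difference as low or lower. The call was kept under 11 of 12 alternative settings and was lost only with a 3-fold threshold.

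The promoter of TGFBR3 is given beside that of TGFB2 because both genes differed by over 2-fold in opposite directions. Its 250 bases before the annotated start lie at chr1:91886152-91886401 (GRCh38.p14, minus strand, written 5′ to 3′ along the gene). Capitals mark the GC box GGGCGG on either strand.

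TGFBR3: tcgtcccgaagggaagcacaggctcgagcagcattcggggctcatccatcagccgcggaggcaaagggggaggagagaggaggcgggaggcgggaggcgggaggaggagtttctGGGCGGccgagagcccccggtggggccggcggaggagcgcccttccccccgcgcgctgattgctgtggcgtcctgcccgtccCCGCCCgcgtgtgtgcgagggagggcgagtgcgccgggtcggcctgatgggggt

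The window held 2 GC boxes and no match to the SMAD-binding core, the E-box, the CRE half-site or the TATA motif, and 73.6% of its bases were G or C, against 50.4% in the TGFB2 window, which held no GC box. GC boxes occurred in 42.6% of all windows, and the median GC share of all windows was 58.0%.

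TGFBR1, the type I receptor kinase, read 579 for HARA and 885 for HARA-B4 on its brightest probe set, a difference of 0.61. A second probe set had 60.4 and 77.9 (0.37), and the remaining one was below background on both arrays. Both detected probe sets were higher in HARA-B4 and neither reached 2-fold. TGFBR2, the type II receptor that binds ligand first, had 386 and 452, a difference of 0.23. Its other probe set lay at the background level, at 25.2 in HARA and 31.2 in HARA-B4. The difference of TGFBR2 was smaller than the SD of 0.30 among probe sets of a gene, and 28.9% of all genes above background had one as high or higher.

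The receptor-activated SMADs differed little. SMAD3 read 110 for HARA and 161 for HARA-B4 on its brightest probe set (0.56), 64.5 and 82.4 on another (0.35) and 30.4 and 46.6 on the dimmest detected one (0.62). All 3 SMAD3 probe sets were thus higher in HARA-B4 by similar amounts, each under 2-fold. SMAD2 gave no single direction. Its brightest probe set had 219 and 203 (-0.11) and another 84.5 and 83.6 (-0.02), while the remaining detected ones had 179 and 240 (0.42) and 115 and 162 (0.50). The gene's value therefore depended on the probe set, with 0.20 as the mean of its 4 detected probe sets. With shared probe sets left out, SMAD2 was represented by its brightest unshared one (0.42), while the other detected unshared one had -0.02. SMAD4, the common partner of both, had 155 and 173 on its brightest probe set (0.16) and 38.9 and 50.9 on another (0.39), and its other 3 probe sets were below background on both arrays.

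Of the inhibitors induced by the pathway, SMAD7 was higher in HARA-B4 and SKIL was not. SMAD7 recruits ubiquitin ligases to the activated type I receptor and blocks SMAD2 and SMAD3 phosphorylation. The only SMAD7 probe set read 48.3 for HARA and 102 for HARA-B4, a difference of 1.08 (2.11-fold), just past the threshold, and 3.01% of genes had one as high or higher. SMAD7 belonged to the dimmest of 3 equal classes of the genes above background on both arrays, where 8.40% of genes reached 2-fold in either direction, against 4.44% in the brightest class. The call of SMAD7 was kept under 8 of 12 alternative settings. It was lost at 3-fold, on the log2(signal + 16) scale (0.88), with a background raised by 1 on the log2 scale (bound 0.91) and with the background at the 99th percentile (bound 0.11). SKIL encodes SnoN, a corepressor that binds SMAD complexes. It had 287 and 282 on its brightest probe set (-0.03) and 63.6 and 43.2 on another (-0.56), and its other 3 probe sets were below background on both arrays.

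Other genes of the pathway were taken in 6 lists by role, holding 108 genes. For each list, the counts stand beside 3.62% higher and 4.2% lower over all genes above background on at least 1 array. In lists this short, 1 gene past 2-fold is not read as a result about its list. In the list of ligands and the latent complex, 12 genes were above background. Of these 1 passed 2-fold upward and 0 downward, and their median was 0.37 against 0.01 over all genes above background on at least 1 array. The higher gene was THBS1, a matricellular protein that can activate latent TGF-beta, which read 79.3 for HARA and 316 for HARA-B4 (1.99), with other probe sets at 1.5 and 0.82. LTBP1, a latent TGF-beta binding protein named here after its values were seen, was at 19.6 and 50.8, at least 1.87-fold higher.

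Of 9 further receptors and coreceptors of the superfamily above background, 1 passed 2-fold upward and 1 downward (median 0.12). BAMBI, a pseudoreceptor without a kinase domain that dampens TGF-beta signalling, read 162 for HARA and 396 for HARA-B4 (1.29) on its only detected probe set. ACVR1C, the type I receptor ALK7 of nodal and activin ligands, had 170 and 51.9 (-1.72), and its second probe set read 83.8 and 13.9, a bound of -1.63.

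Among 17 detected genes of other SMADs, partners and corepressors, 0 were past 2-fold either way (median -0.02). The brightest were TFDP1 (-0.02), a partner of E2F factors, and FKBP1A (-0.33), which binds the type I receptor. Their detected probe sets ran from -0.53 to 0.33 for TFDP1 and from -1.14 to -0.28 for FKBP1A. Of 15 ubiquitin ligases, phosphatases and other brakes, 1 passed 2-fold upward and 0 downward (median 0.00). That gene was PMEPA1, a TGF-beta target that competes for SMAD2 and SMAD3. All 3 PMEPA1 probe sets were over 2-fold higher, at 627 for HARA and 2296 for HARA-B4 (1.87), 629 and 2016 (1.68) and 203 and 628 (1.63). In the non-SMAD branch 1 of 10 was higher, the PI3-kinase subunit PIK3R1 (1.06, and 0.52 by its second probe set), and 0 were lower (median -0.08).

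Of 21 detected genes that respond directly to TGF-beta, 5 passed 2-fold upward and 0 downward, where 3.62% and 4.2% of all genes did. This list was chosen with earlier results of these data known, so the counts are a description only. The median of the 21 was 0.20, and a median of 0.68 was found with shared probe sets left out. The second median is over a different set of genes, since those detected only by a shared probe set, ID3 and CDKN1A among them, drop out. Beside PMEPA1, the response genes past 2-fold were the collagen chain COL4A1 (3.25), the gelatinase MMP2 (2.98) and the cell cycle inhibitor CDKN1A (1.66). The last was the cytokine IL11, at 10.3 for HARA and 85.5 for HARA-B4 (at least 3.15-fold). The remaining 16 did not reach 2-fold, and 8 of the 21 had negative differences, among them the corepressor TGIF1 (-0.82), named here after its values were seen. The list was not divided by the direction in which a gene responds to TGF-beta, so a sign alone does not show more or less of that response.

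**Figure D3:**
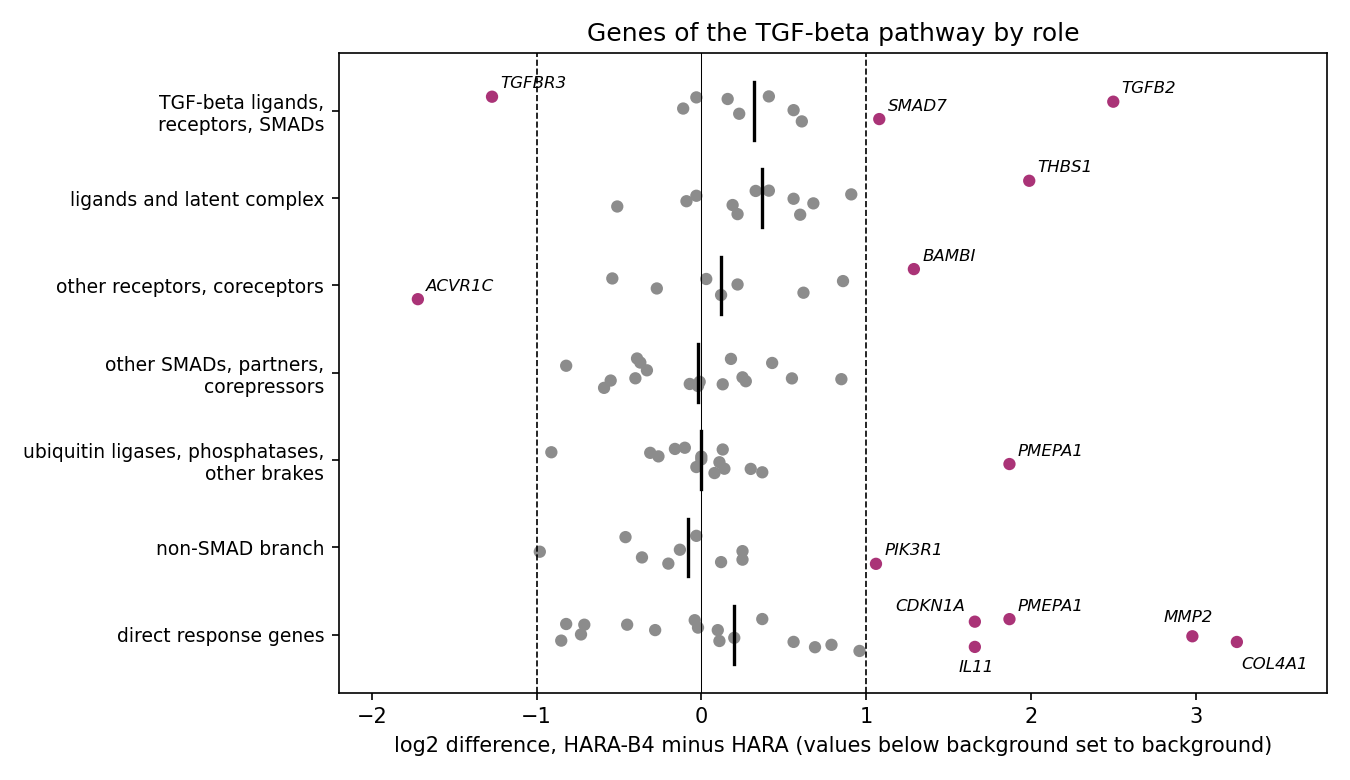
The log2 difference, HARA-B4 minus HARA, of each detected gene in the set described here and in 6 pathway lists, with signals under the background level set to that level. Black bars are medians, dashed lines mark 2-fold, and named purple points are past it. The list medians run from -0.08 for the non-SMAD branch to 0.37 for ligands and the latent complex, with all 5 passing response genes on the right.

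Genes next to each member on its chromosome were examined, because position was not used to choose the members. The 10 nearest genes above background on both arrays were taken on either side in RefSeq order. TGFB2, by its lower bound of 2.50, stood above all 20 of its neighbours, whose median was 0.08 and whose highest was LYPLAL1 at 0.78. With the background at the 99th percentile the bound was 0.69, below this value of LYPLAL1. The neighbours were not chosen again at that level. TGFB2 was itself below background in HARA, so a nearby gene detected only in HARA-B4, as TGFB2 was, could not be among these neighbours. TGFBR3 stood below all 20 of its own, whose median was -0.15 and whose lowest was BRDT at -0.97. SMAD3 (0.56) stood above its 20 neighbours, with a median of -0.05 and MAP2K1 highest at 0.43. Another SMAD3 probe set, at 0.35, was below MAP2K1, so this place depends on the probe set. TGFBR1 differed in this respect: its neighbours had a median of 0.52, with 16 of 20 positive, and 5 of them were higher than the gene itself. The part of the neighbourhood in the TGFBR1 difference was not tested.

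SMAD2, SMAD7 and SMAD4 lie close together on the same chromosome, and SMAD2 and SMAD7 share 18 of their 20 neighbours. The neighbours of SMAD7 had a median of 0.17, and 2 of them stood above SMAD7, the highest being PSTPIP2 at 1.66. Those of SMAD2 and SMAD4 had medians of 0.20 and -0.02. SKIL, at -0.03, lay among neighbours with a median of -0.31, of which 13 of 20 were negative and MECOM was lowest at -1.35. TGFB1 and TGFBR2 had neighbour medians of -0.03 and 0.21.

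**Figure D4:**
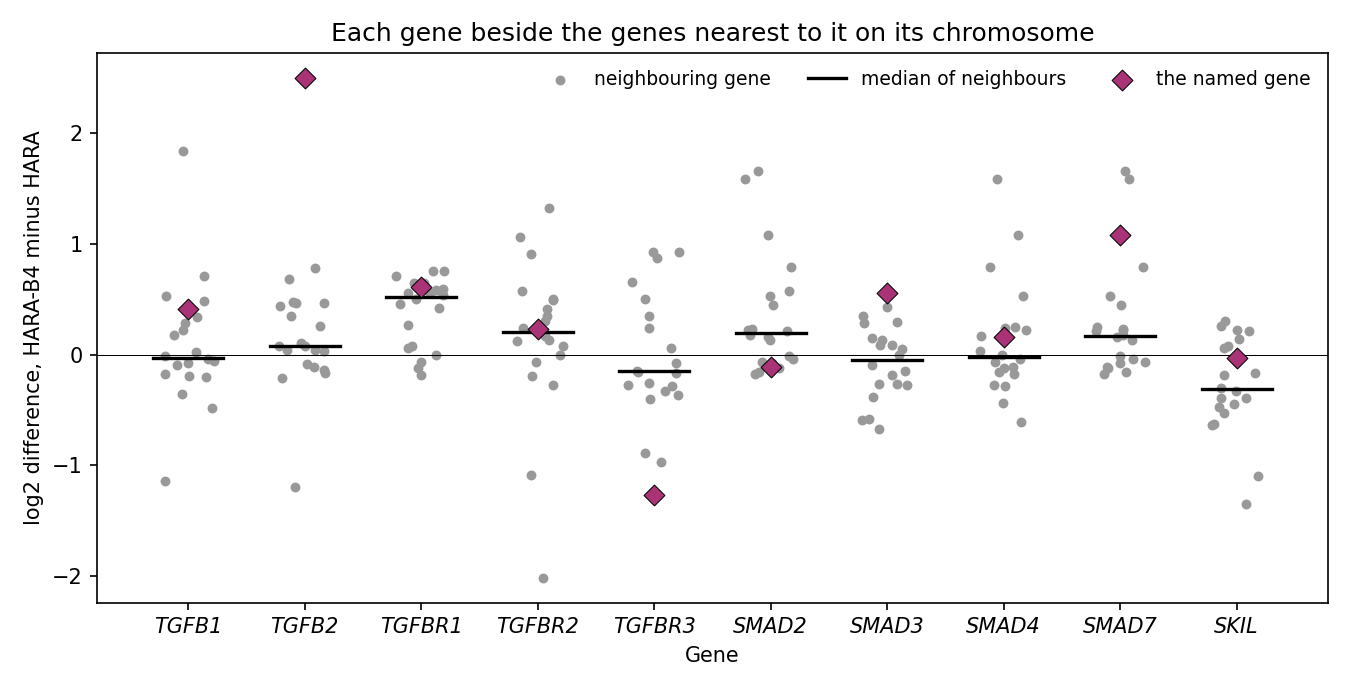
For each gene (diamond), the log2 differences, HARA-B4 minus HARA, of the 10 nearest genes above background on either side (grey points) and their median (bar). The diamond of TGFB2 is a lower bound, and TGFB2 was not itself above background in HARA, as its neighbours had to be. TGFB2 and SMAD3 lie above and TGFBR3 below all of their neighbours, while TGFBR1 lies inside a group of neighbours with a median of 0.52. The place of TGFB2 depends on the background level and that of SMAD3 on the probe set.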

How the data were processed

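Total RNA of 2 cell lines was hybridised to 1 Affymetrix array each. Linear probe set intensity values were deposited by the authors, made with Affymetrix Expression Console per the submitters' processing notes; the sources used here do not give its version, summary algorithm, background correction or scaling. They were used without further scaling, as log2 values. Genes were named from the platform annotation: 41097 probe sets had 1 symbol, 1801 several and 11777 none, and 41043 of the first were updated through Entrez IDs to RefSeq (GRCh38.p14).

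The members and lists were chosen with earlier results of these data known. Each gene was represented by its brightest probe set (mean log2 over both arrays). It was called when its difference was at least 1 in size; a value below background was first set to the background level, so that fold is a lower bound. With 1 array per line no test could be made, and precision is limited by the number of arrays. All members are named; in each pathway list the genes past 2-fold (at most 6) or the 2 brightest are named, others being marked. Genes of the lists without a named probe set are not analysed here. Promoter sequences are RefSeq's. The call rule was tried on simulated data, with differences larger than 2-fold planted only in genes well above background in HARA. Recovery of genes near background there, such as TGFB2 and SMAD7, was not tried. Python 3.11.15, numpy 2.4.6, pandas 2.3.3, statsmodels 0.14.6 and matplotlib 3.10.9 were used. The 12 alternatives concerned scaling, background, probe sets, log scale and fold.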

Additional observations from a re-analysis of the deposited data

How the results depend on the processing

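No paired analysis was possible because each line has 1 array, and no array could be left out. TGFB1, TGFBR2, SMAD2, SMAD3, SMAD4 and SKIL stayed under the threshold in all 12 alternatives, and TGFBR1 in all but the 1.5-fold one. TGFB1 was not above background without shared probe sets, and SMAD2 ran from -0.11 to 0.42. TGFB2 was higher in 10 of 12, except with the background at the 99th percentile and with agreement of all probe sets required, and its lower bound ran from 0.69 to 2.63. SMAD7 was higher in 8 of 12, and TGFBR3 lower in 11 of 12 (from -1.27 to -1.17). The cause was not tested. No called difference changed sign, and the median of all genes stayed between -0.003 and 0.032. The number of genes of the set that were higher fell from 2 to 1 on the log2(signal + 16) scale, with a background raised by 1, at 3-fold and with agreement of probe sets. It fell to 0 with the background at the 99th percentile and rose to 3 at 1.5-fold. The number lower fell from 1 to 0 at 3-fold. In the pathway lists, ligands and the latent complex had 2 higher with the background at the 90th percentile, 0 without shared probe sets or with agreement, and 4 at 1.5-fold. Other receptors had 2 higher at the 90th percentile, 3 at 1.5-fold and 0 at 3-fold, and 0 lower at the 99th percentile. Other SMADs had 1 higher and 2 lower at 1.5-fold, and the ligases and brakes 1 lower. The non-SMAD branch had 0 higher at the 99th percentile, with the mean of probe sets, on the log2(signal + 16) scale, at 3-fold and with agreement, and 1 lower with lowess and at 1.5-fold. The response genes had 8 higher and 4 lower at 1.5-fold. They had 6 higher with quantile normalization and at the 90th percentile, and 4 higher at the 99th percentile and with a background raised by 1. Over all genes, 416 higher and 483 lower became 206 and 244 at the 99th percentile, 1175 and 1269 at 1.5-fold, and 141 and 155 at 3-fold. Fewer genes passing a higher threshold or background follows from its construction. The median of the response genes was 0.68 without shared probe sets, against 0.20, but over a different set of genes, since those detected only by a shared probe set drop out. Of the values for single genes and list medians, 8 moved by more than the SD of 0.30 among probe sets of a gene and 135 did not. Signal over background limits TGFB2, SMAD7 and the 13 undetected probe sets most.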

Other observations

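The promoter windows of the other genes were searched in the same way. RefSeq gave 25 windows of 250 bases for the 10 genes, since some have several annotated starts, and their GC share ran from 40.8% to 84.4%. Some windows of the same gene overlap, as for TGFBR1 and SMAD2. The shares below therefore count some bases more than once, and the windows are not separate observations. The SMAD-binding core CAGAC was found in 10 of the 25 windows (40.0%, against 38.0% of all windows), in 5 genes, namely TGFB2, TGFBR1, SMAD3, SMAD7 and SKIL. The 3 windows of SMAD7 held 0, 1 and 2 matches and the single window of SKIL held 1. TATAAA occurred in 2 of the 25 windows (8.0%, against 10.7% of all windows), those being the TGFB2 window and 1 of the 3 SMAD7 windows. The CRE half-site ACGTCA was found in 2 windows (8.0%, against 7.10% of all windows), with 1 match in TGFB2 and 3 in SKIL. GC boxes were present in 12 of the 25 windows (48.0%, against 42.6% of all windows). These are descriptions of letters in short windows and were noticed after the expression values were known.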
